A study of Rattus norvegicus with 16 samples.

Results

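The muscle of rats that acquired fitness by training was set against the muscle of rats that were bred for it. Trained rats of the LCR line, selected for low running capacity, were compared with untrained rats of the HCR line, selected for high running capacity. The members were the arrays titled as soleus of trained low capacity runners (4 arrays) and of sedentary high capacity runners (4 arrays), 8 of the 16 arrays of the series. All 31042 probe sets other than the array's control probe sets entered the comparison, with no filter on level. Differences below are LCR trained minus HCR sedentary on the log2 scale unless another pair is named, so that 1 unit is a 2-fold difference, and a positive value means more signal in the trained LCR rats.

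The soleus is a postural calf muscle made mostly of slow, oxidative fibres. Endurance training is known for raising mitochondrial enzymes, fatty acid transport and capillary supply in such muscle, partly through the coactivator PGC-1alpha, encoded by Ppargc1a. Selection for running capacity acts on inherited differences instead, in heart, lung and blood as well as in muscle. The question asked of the data is which transcripts separate the acquired from the inborn state, and how closely the oxidative, contractile and vascular transcripts of the 2 groups can be shown to lie together.

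All rats were females of generation 16 of a selection that began with N:NIH stock rats. The LCR trained rats had run uphill at 25 degrees for 1.5 hours a session, on 5 days a week for 8 weeks, in intervals of 8 minutes at 85 to 90% of maximal oxygen uptake, and were killed 48 hours after the last session. The HCR sedentary rats were handled alike except for training and uptake tests, and both groups were about 7 months old. RNA came from 20 mg of whole soleus, with 1 rat on each array and no pooling. The groups differ in line and in training at once, so no difference between them can be assigned to either one alone. Differences from the LCR sedentary rats (n = 4) are therefore given for the probe sets that passed and for some other genes and lists. The plot of list medians shows them for every list. The other named genes are given without such pairs, so their values do not show on which side the groups moved apart. These pairs share arrays: for each probe set, LCR trained minus HCR sedentary equals LCR trained minus LCR sedentary less HCR sedentary minus LCR sedentary.

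The 8 arrays correlated at 0.968 to 0.996 with each other over all probe sets, and no pair was identical. Among 10 defining skeletal muscle markers, including the actin, creatine kinase and titin genes of muscle, the median difference was 0.01. Control measures of RNA and labelling overlapped between the groups. The beta-actin index, 3' minus middle probe set, was 1.27 ± 0.14 in LCR trained and 1.18 ± 0.54 in HCR sedentary rats (SD, n = 4, two-sided exact permutation p = 0.914, the smallest p possible being 0.0286). The GAPDH index gave exact p = 0.886 and the spike-in mean exact p = 0.114 (0.343 after adjustment over the 3 measures). Single arrays stood apart more than the groups did. HCR sedentary 2 had a mean of extracellular matrix genes 1.60 above the average of the 16 arrays, against -0.30 to -0.02 on the other HCR sedentary arrays, and a mean of fatty acid oxidation genes of -0.97 against 0.07 to 0.16. LCR trained 2 was the highest LCR trained array for matrix genes, at 1.08. HCR trained 3, an array of neither group that entered the shared estimate of spread, had a slow fibre mean of -1.81. The beta-actin index of HCR sedentary 2 was 0.38, below those of all 15 other arrays (1.06 to 2.37), of which LCR trained 2 had the lowest. With this index as a covariate, 15 probe sets passed in place of the 9 given next. Many list results are given with and without HCR sedentary 2, and some with and without LCR trained 2.

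Very few transcripts separated the groups. By limma's moderated test with Benjamini-Hochberg adjustment, 9 of 31042 probe sets passed an adjusted p of 0.05 (0.029%). Of these, 4 were higher in LCR trained rats (0.0129%) and 5 lower (0.0161%), and 2 of the 9 carry a gene symbol. Cox7a1 was higher and Cyp2j4 lower in the trained LCR soleus. Before adjustment, 3028 probe sets had a p under 0.05 (9.75%), 1207 of them higher (3.89%) and 1821 lower (5.87%), against 1552.1 expected if no probe set differed. The arrays of the 2 groups did not overlap for 2516 probe sets (8.11%), 879 higher (2.83%) and 1637 lower (5.27%). Only 66 probe sets differed by 2-fold or more (0.213%).

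The count of 9 depended on which arrays were used. Leaving out 1 array of the 2 groups at a time gave 4 to 11 probe sets: 5 without HCR sedentary 3, HCR sedentary 4 or LCR trained 1, and 4 without LCR trained 4. Leaving out HCR trained 3 gave 23, which included the 9, and leaving out LCR sedentary 1 gave 16, although neither array belongs to the groups compared. Limma's array weights, which give arrays that stand apart less weight, gave 484.

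A small count does not show that the groups were alike, so the precision is given too. The 95% interval of the difference had a median half-width of 0.21 log2 units. It lay wholly within 1.5-fold for 85.6% of probe sets and within 2-fold for 96.5%. The share within 1.5-fold was 96.2% for the probe sets under the 40th percentile of level, where signal is low, and 80.5%, 73.3% and 77.1% for those from there to 8, from 8 to 10 and from 10 up. For 21 probe sets it lay wholly beyond 1.5-fold.

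**Figure D1:**
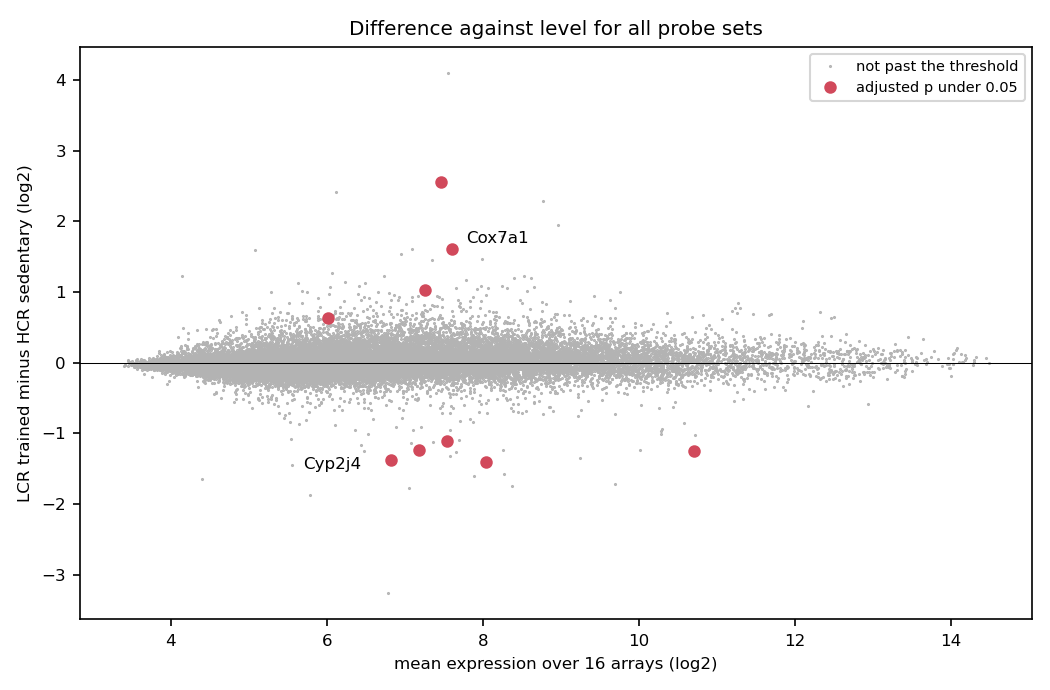
Difference between LCR trained and HCR sedentary soleus (log2, vertical axis) against mean expression over the 16 arrays (log2, horizontal axis) for 31042 probe sets, 1 point each. The 9 larger points passed an adjusted p of 0.05, and those with a gene symbol, Cox7a1 and Cyp2j4, are labelled.

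Cox7a1 encodes the muscle and heart form of subunit VIIa of cytochrome c oxidase, the last complex of the respiratory chain. It read 8.63, 8.19, 8.19 and 8.29 on the LCR trained arrays. The HCR sedentary arrays read 6.67, 6.69, 6.52 and 7.01, so the groups were apart by more than either spanned. The difference was 1.60 (SE 0.22, 95% interval 1.14 to 2.07, n = 4 rats a group, limma adjusted p = 0.0142), a 3.04-fold higher signal in LCR trained rats. Sedentary LCR rats read 6.81, 7.12, 6.74 and 5.94, so HCR and LCR sedentary rats overlapped. LCR trained minus LCR sedentary was 1.67 (adjusted p = 0.0465) and HCR sedentary minus LCR sedentary 0.07 (adjusted p = 0.943). In that order of means, LCR sedentary (6.65), HCR sedentary (6.72) and LCR trained (8.33), the first neighbours did not differ beyond their spread. HCR trained rats read 8.68, 8.28, 8.96 and 8.97, with a mean of 8.72, so the high level was not particular to the trained LCR rats. Leaving out 1 of the 8 arrays at a time kept the difference between 1.50 and 1.70. The adjusted p then ran from 0.0268 to 0.0733, and the call was lost without HCR sedentary 1, HCR sedentary 3, LCR trained 1 or LCR trained 4.

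None of the other measured subunits of cytochrome c oxidase passed. Complex IV had 14 measured genes, and the 13 besides Cox7a1 differed by -0.13 to 0.17, with 8 of them above 0. Cox6a2, another muscle subunit, read 13.93, 13.86, 13.88 and 14.01 in LCR trained and 13.98, 13.81, 14.03 and 14.15 in HCR sedentary rats, a difference of -0.07 (95% interval -0.23 to 0.09). Cox7a2, the form of the same subunit found in most other tissues, had no probe set with its own symbol. Cox7a1 was measured by 1 probe set.

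Cyp2j4 encodes a cytochrome P450 of the 2J family, enzymes known for turning arachidonic acid into epoxides. LCR trained rats read 6.23, 6.31, 6.13 and 6.20. HCR sedentary rats read 7.69, 7.14, 7.45 and 8.11, all above every LCR trained array. The difference was -1.38 (SE 0.20, 95% interval -1.80 to -0.96, limma adjusted p = 0.0199), a 2.60-fold lower signal in LCR trained rats. Sedentary LCR rats read 6.34, 6.67, 6.20 and 6.33 and overlapped the trained rats of their line. LCR trained minus LCR sedentary was -0.17 (adjusted p = 0.803) and HCR sedentary minus LCR sedentary 1.21 (adjusted p = 0.112). HCR trained rats, at 7.54, 6.58, 7.07 and 7.18, reached down to the LCR range. With 1 array left out, the difference stayed between -1.53 and -1.21. Its call was kept only without HCR sedentary 2 (adjusted p = 0.00747), and the adjusted p rose to as much as 0.0961 without one of the other arrays.

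The 2 named genes thus stood apart on different sides of the comparison: the sedentary LCR rats lay with the HCR sedentary rats for Cox7a1 and with the LCR trained rats for Cyp2j4. Their promoters are shown because they are the named transcripts that passed. The windows run from 250 bases before to 50 after the transcription start and come from RefSeq, build GRCr8. The Cox7a1 window is chr1:94568966-94569265 on the plus strand, at a gene annotated on chromosome 1 from 94549663 to 94572330. This window lies inside the annotated span and not at its first base, and the bases around that first base were not searched. The Cyp2j4 window is chr5:116322993-116323292 on the minus strand, at a gene annotated on chromosome 5 from 116295691 to 116323219. Capitals mark matches to CANNTG, the E-box core that myogenic and circadian regulators are known to bind, and each line is read 5′ to 3′.
Cox7a1: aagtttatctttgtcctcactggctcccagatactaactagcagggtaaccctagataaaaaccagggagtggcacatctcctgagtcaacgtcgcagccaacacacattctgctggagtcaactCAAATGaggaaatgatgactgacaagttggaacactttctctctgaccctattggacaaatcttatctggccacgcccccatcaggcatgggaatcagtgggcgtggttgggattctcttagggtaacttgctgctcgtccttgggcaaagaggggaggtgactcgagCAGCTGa
Cyp2j4: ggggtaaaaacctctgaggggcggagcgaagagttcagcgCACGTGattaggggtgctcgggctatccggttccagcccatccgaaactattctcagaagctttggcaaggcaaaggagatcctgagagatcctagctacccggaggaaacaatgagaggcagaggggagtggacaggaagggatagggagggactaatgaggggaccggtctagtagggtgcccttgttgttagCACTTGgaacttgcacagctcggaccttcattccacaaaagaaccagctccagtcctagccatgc
Each window held 2 E-box matches, and 72.1% of 33469 promoter windows of this length held at least 1. Searches of both strands for AAGGTCA, the half-site of estrogen-related receptors (4.61% of promoters), for the site of NRF1 (4.25%), and for the MEF2 site (3.29%) found no match in either window. GGGCGG, the GC box (33.1%), matched once in the Cyp2j4 window. These are matches of letters, and no binding was measured here.

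The other 7 probe sets that passed have no gene symbol in the platform annotation and are given by probe set, a choice made after their values were seen. Of the higher ones, probe set 1371776_at read 8.78, 8.29, 8.33 and 8.68 in LCR trained and 6.69, 5.81, 5.77 and 5.61 in HCR sedentary rats, a difference of 2.55 (SE 0.37, limma adjusted p = 0.0211). Probe set 1374583_at was higher by 1.03 (SE 0.11, adjusted p = 0.00149) and probe set 1380976_at by 0.64 (SE 0.09, adjusted p = 0.0142). For these 3, LCR trained minus LCR sedentary was 0.16, -0.23 and 0.02, while HCR sedentary minus LCR sedentary was -2.39, -1.25 and -0.62.

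Of the lower ones, probe set 1371775_at read 10.04, 9.72, 10.00 and 9.85 in LCR trained and 11.05, 10.93, 11.59 and 11.03 in HCR sedentary rats, a difference of -1.24 (SE 0.13, limma adjusted p = 0.00149). Probe sets 1394609_at (-1.41) and 1380330_at (-1.11) also had an adjusted p of 0.00149, and probe set 1389369_at (-1.24) one of 0.0142. Here the means of the sedentary LCR rats lay between those of the groups: HCR sedentary minus LCR sedentary was 0.67 to 0.79 for the 4, and LCR trained minus LCR sedentary -0.63 to -0.45. For 2 of all 5 lower probe sets, Cyp2j4 being 1 of them, the LCR trained rats overlapped the LCR sedentary rats. Over all probe sets, 1 passed for LCR trained minus LCR sedentary (0.00322%), which was Cox7a1, and 3 for HCR sedentary minus LCR sedentary (0.00966%), 1374583_at and 1380976_at among them. Of the 9 probe sets that passed, Cox7a1 was the only one for which the sedentary rats of the lines overlapped. Probe sets 1371775_at, 1374583_at, 1380330_at and 1394609_at stayed past the threshold without any 1 of the 8 arrays. Probe set 1389369_at was kept in 3 of the 8 such fits, 1380976_at in 2 and 1371776_at in 1.

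**Figure D2:**
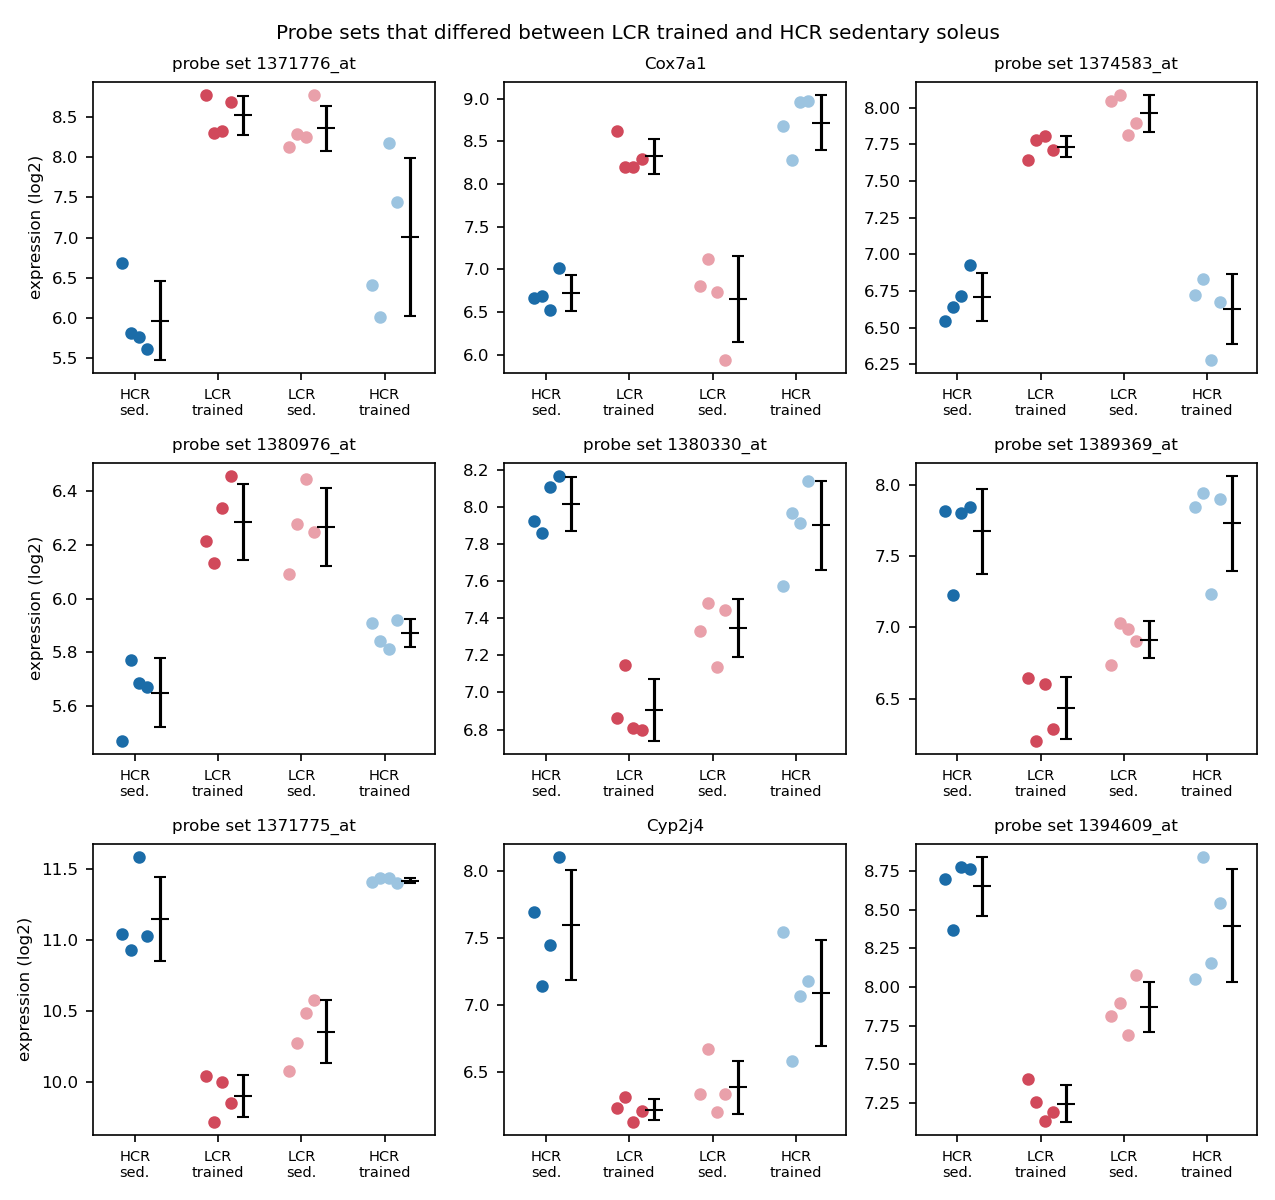
Expression (log2, vertical axes) of the 9 probe sets that passed, 1 point a rat, in HCR sedentary, LCR trained, LCR sedentary and HCR trained soleus, with the mean and SD of each group (n = 4) as bars. For Cox7a1 the LCR sedentary rats lie with the HCR sedentary rats, and for Cyp2j4 with the LCR trained rats.

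Next to these, the higher genes of smallest p did not pass and are given by their values. RT1-Ba, an alpha chain of the class II histocompatibility molecules that present antigen, read 9.90, 10.87, 10.07 and 10.30 in LCR trained and 8.26, 8.25, 8.38 and 8.44 in HCR sedentary rats. Its difference was 1.95 (95% interval 1.23 to 2.68, limma adjusted p = 0.0972, and 0.0191 in a fit of the 8 arrays alone). Of 3 other RT1-Ba probe sets, 2 had the opposite sign. Cd9, a tetraspanin of the cell surface, read 10.32, 10.57, 10.35 and 10.98 against 9.47, 9.81, 9.50 and 9.45, a higher signal with a 95% interval of 0.61 to 1.39 (limma adjusted p = 0.108), and with LCR trained minus LCR sedentary at 1.05. Akr1b10, an aldo-keto reductase, differed by 1.09 (adjusted p = 0.108), with HCR sedentary minus LCR sedentary at -1.09. Crebl2, a leucine zipper factor of the CREB family, differed by 0.97 (adjusted p = 0.101). Cdkn1b, the cell cycle inhibitor p27, differed by 0.59, and Spry2, an inhibitor of growth factor signalling, by 0.46. Pcmtd2 (0.81), Schip1 (0.40) and Wbp4 (0.44) completed the higher 10.

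On the lower side Styxl1, a phosphatase-like protein of mitochondria, read 5.74, 5.76, 5.67 and 5.64 in LCR trained and 6.08, 5.99, 6.16 and 6.03 in HCR sedentary rats. The difference was -0.36 (limma adjusted p = 0.0719), with LCR trained minus LCR sedentary at -0.36. Mad2l2, a subunit of a DNA repair polymerase, gave -0.38 (adjusted p = 0.108). Aars1, the alanyl-tRNA synthetase, gave -0.32 (adjusted p = 0.122) with tight groups, 9.64 to 9.75 against 9.97 to 10.04. Nudt6, a Nudix hydrolase, gave -0.79 (adjusted p = 0.176), and -0.96 without HCR sedentary 2 (adjusted p = 0.0254). Shmt1 and Cbs, enzymes of one-carbon and sulphur amino acid metabolism, gave -0.37 and -0.36 (both adjusted p = 0.220). Agap3 (-0.34), Ngef (-0.30) and RT1-A (-0.67), a class I histocompatibility gene, completed the lower 10. None of these groups of 4 overlapped, but the genes were chosen for their small p in the same comparison. Over all probe sets, 5.27% did not overlap in the lower direction.

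Leaving out HCR trained 3 keeps all 8 arrays compared, and 14 genes then passed. Besides Cox7a1 and Cyp2j4, and Styxl1, Crebl2 and RT1-A among those above, they included Acsf2, an acyl-CoA synthetase of mitochondria (1.22, adjusted p = 0.0112), and Atp2b3, a calcium pump of the plasma membrane (0.70, adjusted p = 0.0158). The bicarbonate transporters Slc4a4 (0.77) and Slc4a3 (-1.35), the endothelial phosphatase Ptprb (0.49), Ptpn4 (0.60), Tmem252 (0.44), the amino acid transporter Slc43a2 (-0.38) and Adprhl1 (-0.56) made up the rest. Over all 16 arrays their adjusted p ran from 0.0199 for Cyp2j4 to 0.661 for Adprhl1, apart from Cox7a1. These genes are named because of that array, after their values were seen.

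Gene lists were described by how many members were higher in LCR trained rats, how many had an unadjusted p under 0.05 and their median difference, with 1 probe set a gene, the brightest. The same measures over all 14217 named genes give the background. There, 42.7% were higher, the median was -0.02, 4.28% were higher with an unadjusted p under 0.05, and 5.66% lower. Among all list members, only Cox7a1 passed the adjusted threshold (0.0141% of the 14217 genes passed, 2 in all). The list counts are therefore descriptions of groups of genes that each failed the test, with that 1 exception.

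Transcripts of the respiratory chain and ATP synthase lay slightly above those of HCR sedentary rats. Of 69 measured, 62 were higher and 8 had an unadjusted p under 0.05, none lower, with a median of 0.13. By complex, the higher members were 32 of 33 in complex I (NADH dehydrogenase, median 0.17), 4 of 4 in complex II (0.13), 8 of 8 in complex III (0.16), 9 of 14 in complex IV (0.09) and 13 of 14 in complex V (ATP synthase, 0.08). Atp5mf, a subunit of the membrane part of ATP synthase, read 13.07, 12.86, 12.97 and 12.97 against 12.78, 12.38, 12.73 and 12.77, a difference of 0.30 (limma adjusted p = 0.340). Ndufa2, of complex I, differed by 0.29 (adjusted p = 0.486). The list's mean on HCR sedentary 2 was -0.43, and on the other HCR sedentary arrays -0.05 to 0.08, against -0.09 to 0.12 on the LCR trained arrays. When HCR sedentary 2 was left out, 45 of 69 were higher, 3 with an unadjusted p under 0.05 and 2 lower, and the median was 0.02. When LCR trained 2 was left out, 63 were higher, 16 with an unadjusted p under 0.05, and the median was 0.18. LCR trained minus LCR sedentary had a median of 0.04 and HCR sedentary minus LCR sedentary -0.10, which was 0.01 without HCR sedentary 2. For 67 of the 69 genes the 95% interval lay within 1.5-fold.

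The fatty acid oxidation list changed its median's sign with the same array. Over all arrays 20 of 26 genes were higher, with a median of 0.08. Only 3 of 26 genes were higher without HCR sedentary 2, and the median was -0.17, with 2 higher and 4 lower at an unadjusted p under 0.05. Without LCR trained 2 instead, 22 of 26 were higher and the median was 0.16. Cpt1b, the muscle carnitine palmitoyltransferase that admits long fatty acids to mitochondria, read 12.05, 11.87, 12.15 and 12.07 in LCR trained and 12.37, 11.42, 12.33 and 12.36 in HCR sedentary rats. Its difference was -0.08 with all arrays and -0.32 without HCR sedentary 2 (limma adjusted p = 0.489). Acaa2, the thiolase of the last step, read 9.88 on HCR sedentary 2 and 11.29 to 11.87 on the 7 other arrays. Its difference was 0.37, and -0.08 without that array.

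Acsf2 is the fatty acid gene that set the groups furthest apart. It read 9.30, 8.66, 9.22 and 8.74 in LCR trained and 7.50, 7.84, 7.90 and 7.80 in HCR sedentary rats, with no overlap. The difference was 1.22 (95% interval 0.62 to 1.83, limma adjusted p = 0.237). Here the sedentary LCR rats were highest, at a mean of 9.51: LCR trained minus LCR sedentary was -0.53, and HCR sedentary minus LCR sedentary -1.75 (neither is a separate source of evidence, since the arrays are shared). Pecr, a reductase of fatty acid metabolism in peroxisomes, differed by 0.55 (adjusted p = 0.340).

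For fatty acid uptake and storage 12 of 20 genes were higher, with a median of 0.01. Leaving out HCR sedentary 2 gave 6 of 20, a median of -0.13, and 3 lower and 0 higher with an unadjusted p under 0.05. Cd36, the fatty acid transporter of the fibre membrane, read 11.23, 10.95, 11.23 and 10.95 against 10.98, 10.01, 11.08 and 10.56, a difference of 0.43 (95% interval -0.15 to 1.01), and 0.22 without HCR sedentary 2. Lpl, the lipase that frees fatty acids from blood lipoproteins, read 12.97, 12.73, 12.97 and 12.84 against 13.01, 12.01, 13.02 and 12.82, a difference of 0.16, and -0.07 without that array. Slc27a1, another transporter, differed by 0.46 and Angptl4, an inhibitor of Lpl, by -0.40. Of the targets of PPAR receptors and uncoupling genes 6 of 17 were higher, with a median of -0.04, and 4 of 17 without HCR sedentary 2, with a median of -0.20 and 3 lower at an unadjusted p under 0.05. Among them Pdk4, the kinase that shuts glucose carbon out of the citric acid cycle, spanned 9.68 to 11.24 in LCR trained and 9.54 to 11.45 in HCR sedentary rats, so its difference of -0.08 had an interval of -1.33 to 1.17. Ucp3, an uncoupling protein of muscle, gave -0.20 (-1.22 to 0.81).

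The citric acid cycle and amino acid breakdown also had lower medians when HCR sedentary 2 was left out. Of 21 citric acid cycle genes 17 were higher with a median of 0.14, and 9 with a median of -0.01 without that array. Without LCR trained 2 instead, 20 of 21 were higher and the median was 0.19. Cs, citrate synthase, the usual enzyme marker of mitochondrial content, read 12.27, 12.13, 12.24 and 12.27 in LCR trained and 12.23, 11.67, 12.22 and 12.26 in HCR sedentary rats. Its difference was 0.13 (95% interval -0.11 to 0.37), and -0.01 without HCR sedentary 2. Me3, a mitochondrial malic enzyme, differed by 0.65 and Dld, a shared subunit of the dehydrogenase complexes, by 0.36 (limma adjusted p = 0.497 and 0.476). Amino acid breakdown had 20 of 28 genes higher and a median of 0.19, which was 0.07 without the array. Its widest difference was that of Mmut, methylmalonyl-CoA mutase, at 9.40, 9.28, 9.29 and 9.23 against 9.07, 7.85, 8.84 and 8.73 (0.68, adjusted p = 0.340, and 0.42 without HCR sedentary 2). Got1 and Dbt each differed by 0.40.

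Regulators of mitochondrial biogenesis had 16 of 24 members higher, a median of 0.09, and 4 higher and 1 lower at an unadjusted p under 0.05. These became 13 of 24, 0.02, 1 and 1 when HCR sedentary 2 was left out. Ppargc1a read 8.33, 7.97, 8.28 and 8.29 in LCR trained and 8.18, 7.13, 8.09 and 7.54 in HCR sedentary rats, which overlapped. The difference was 0.48 (95% interval 0.04 to 0.92, limma adjusted p = 0.481), and 0.28 without HCR sedentary 2. Gabpa, a subunit of the nuclear respiratory factor NRF2, read 7.70, 7.77, 7.54 and 7.46 against 7.33, 7.16, 6.94 and 7.22, with no overlap (0.46, adjusted p = 0.340). Tfam, which packs and transcribes mitochondrial DNA, differed by 0.11 (-0.02 to 0.24) and Ppargc1b by -0.02 (-0.63 to 0.58). Mitochondrial ribosomal proteins had 51 of 72 members higher and a median of 0.06, which became 37 of 72 and 0.00 without HCR sedentary 2. Mrps18c (0.59) had the largest difference among them.

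Glycolysis and glycogen genes had 28 of 35 members higher, a median of 0.12 and 4 higher with an unadjusted p under 0.05. These were 25 of 35 and 0.09 without HCR sedentary 2, and 30 of 35 and 0.21 without LCR trained 2. Pfkfb3, which makes the activator of phosphofructokinase, read 7.99, 7.24, 7.46 and 8.48 against 7.48, 6.34, 6.86 and 6.91, a difference of 0.89 (limma adjusted p = 0.399) with 2 other probe sets of opposite sign. Slc16a3, the lactate exporter of glycolytic fibres, differed by 1.05 and Phkg1, a subunit of phosphorylase kinase, by 0.76 (adjusted p = 0.621 and 0.558). For glucose entry, Slc2a4, the insulin-responsive transporter GLUT4, read 12.44, 12.18, 12.40 and 12.71 against 12.49, 11.20, 12.22 and 12.30. Its difference was 0.38 (95% interval -0.08 to 0.84), and 0.10 without HCR sedentary 2. Hk2, hexokinase 2, gave 0.45 (-0.23 to 1.14). The lactate dehydrogenase genes Ldha and Ldhb gave 0.07 and 0.04. Of 29 insulin and AMPK signalling genes 10 were higher, and Pik3r1, a regulatory subunit of PI3 kinase, had the widest difference (-0.56, adjusted p = 0.503).

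**Figure D3:**
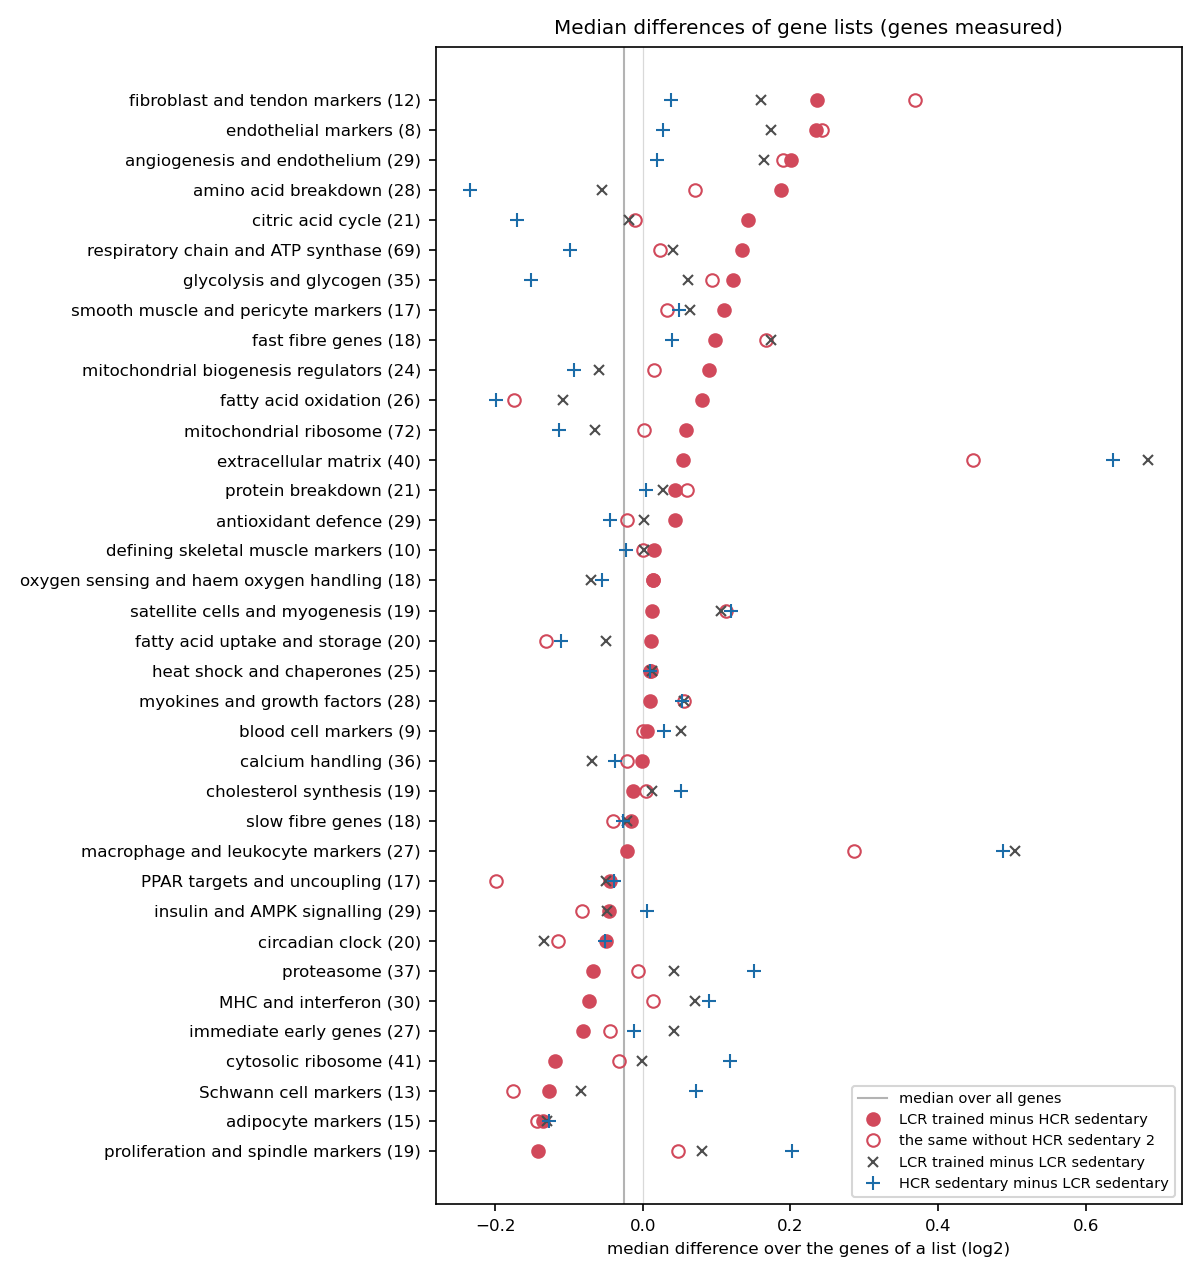
Median difference (log2, horizontal axis) over the measured genes of 36 lists, whose numbers of genes stand in brackets, for LCR trained minus HCR sedentary with all arrays (filled circles) and without HCR sedentary 2 (open circles), and for the other pairs of groups (crosses and plus signs). Extracellular matrix moves from 0.05 to 0.45 and fatty acid oxidation from 0.08 to -0.17 when that array is left out, while the endothelial lists move little.

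No fibre type gene passed. Of 18 slow fibre genes 7 were higher with a median of -0.02, and of 18 fast fibre genes 15 were higher with a median of 0.10. Myh7, the slow myosin heavy chain, read 14.50, 14.52, 14.48 and 14.40 in LCR trained and 14.50, 14.42, 14.52 and 14.39 in HCR sedentary rats. Its difference was 0.02, with a 95% interval of -0.78 to 0.82 from the 16 arrays and -0.11 to 0.14 from the 8 arrays alone. Tnnt1, slow troponin T, gave 0.04 (-0.18 to 0.27 from the 8 arrays). The fit of 16 arrays shares its spread with the 8 other arrays, HCR trained 3 among them. For the slow genes the median SE was 0.37 with all 16 arrays and 0.09 with the 8, and the number with an interval within 1.5-fold was 6 of 18 and 16 of 18. Ankrd2, a stretch-responsive gene of slow fibres, was the widest of the slow genes at -0.59, with readings of 12.62, 13.27, 13.44 and 12.63 against 13.67, 13.49, 13.25 and 13.89. Its interval from the 8 arrays alone was -1.08 to -0.09 (limma adjusted p = 0.337). It was the only slow gene with an unadjusted p under 0.05 in that fit.

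Fast fibre genes varied more among rats. Myh2, the IIA myosin heavy chain, read 13.87, 13.76, 13.78 and 13.75 against 13.44, 13.74, 13.74 and 13.68, a difference of 0.14 (8 arrays alone -0.04 to 0.32). Myh1, the IIX chain, gave 0.05 (-0.13 to 0.24). Myh4, the IIB chain, read 8.03 on HCR sedentary 2 and 4.76 to 5.80 on the 7 other arrays, so its difference of -0.40 became 0.38 without that array. Mybpc2, fast myosin-binding protein C, ranged from 7.10 to 9.89 in LCR trained and from 5.91 to 8.93 in HCR sedentary rats (1.20, 95% interval -1.19 to 3.58). For 9 of 18 fast genes the interval from the 8 arrays lay within 1.5-fold. Calcium handling was split, with 18 of 36 higher and a median of 0.00. At an unadjusted p under 0.05, 1 was higher (2.78%, against 4.28% of all genes) and 5 were lower (13.9%, against 5.66%). Among the 5 lower ones Camk2b, a subunit of the calcium/calmodulin kinase, read 11.18, 11.27, 11.11 and 11.13 against 11.69, 11.38, 11.63 and 11.46 (-0.37, limma adjusted p = 0.385), and Cacnb1, a subunit of the voltage sensor, gave -0.36. Titin (Ttn), the spring of the sarcomere, gave -0.19 with no overlap (adjusted p = 0.385).

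**Figure D4:**
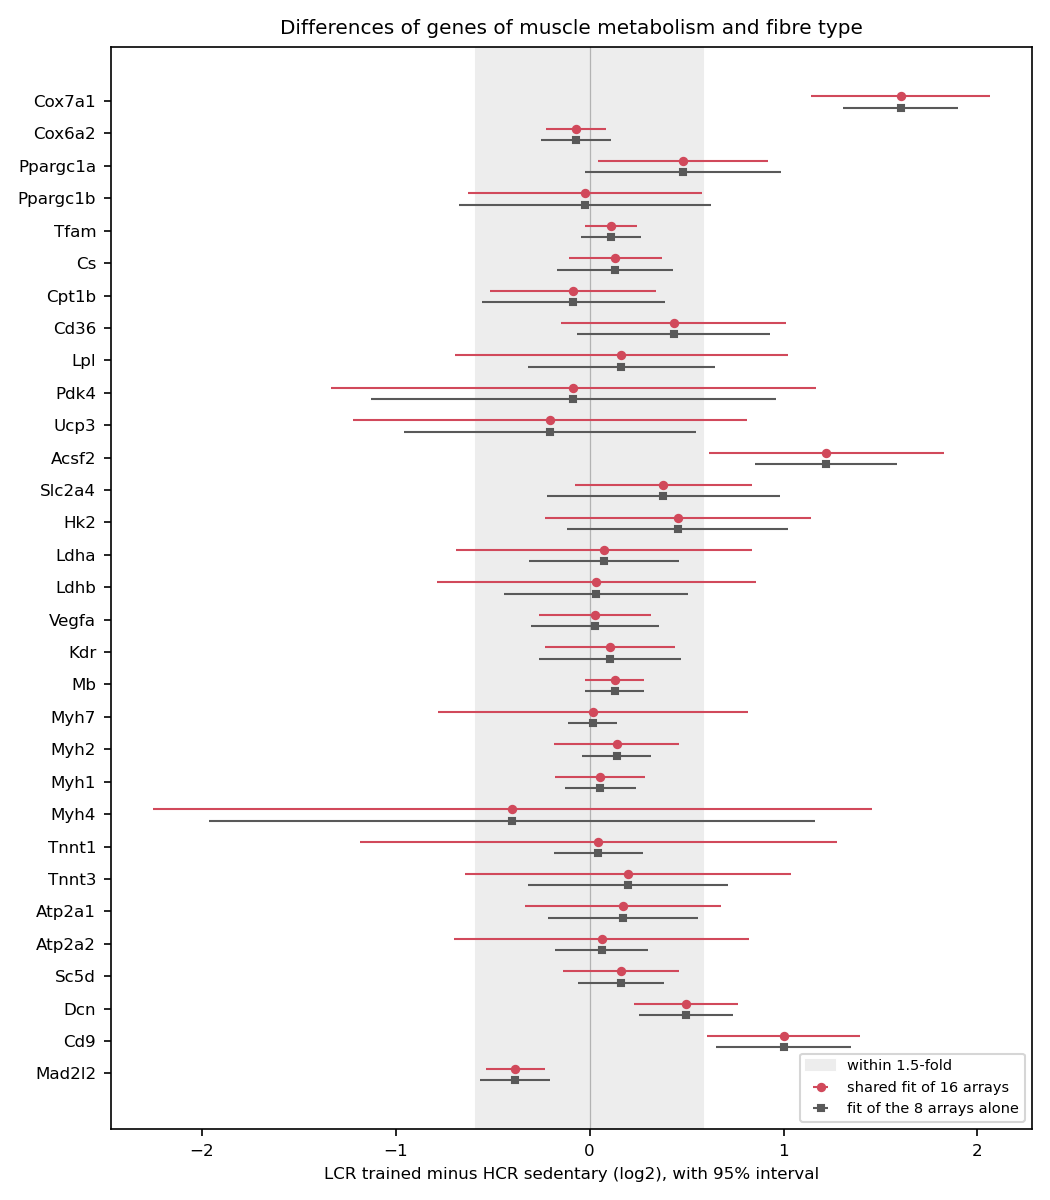
Difference between LCR trained and HCR sedentary soleus (log2, horizontal axis) with its 95% interval for genes of metabolism, vessels and fibre type, from the shared fit of 16 arrays (circles) and from the 8 arrays alone (squares). The band marks differences within 1.5-fold. Myh7 and Tnnt1 have narrow intervals from the 8 arrays alone, and the intervals of Cox7a1, Acsf2 and Cd9 lie wholly outside the band.

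The array means of the groups did not overlap for 2 of the 36 lists, endothelial markers and the wider list of vessel genes. These 2 lists share genes. Among all single probe sets 8.11% did not overlap, so the count of 2 lists does not by itself mark them out. Of 29 angiogenesis and endothelium genes 23 were higher, with a median of 0.20, and 9 had an unadjusted p under 0.05, none lower (31.0%, against 4.28% of all genes). The groups did not overlap for 8 of the 29, all higher, against 2.83% of all probe sets. The list's mean was 0.07 to 0.16 on the LCR trained and -0.12 to -0.01 on the HCR sedentary arrays. None of the 29 passed the adjusted threshold. Without HCR sedentary 2 the list gave 23 of 29, a median of 0.19, and 9 higher and 1 lower. With each of the 8 arrays left out in turn, the median stayed between 0.16 and 0.22. LCR trained minus LCR sedentary had a median of 0.16, and HCR sedentary minus LCR sedentary 0.02.

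Ptprb, the endothelial phosphatase that restrains the Tie2 receptor, read 9.94, 9.88, 9.89 and 9.88 in LCR trained and 9.44, 9.31, 9.49 and 9.39 in HCR sedentary rats. The difference was 0.49 (95% interval 0.25 to 0.74, limma adjusted p = 0.237). Sox17, a transcription factor of arterial endothelium, read 8.33, 8.41, 8.01 and 8.32 against 7.61, 7.65, 7.80 and 7.69 (0.58, adjusted p = 0.362). Vwf, von Willebrand factor, read 9.09, 9.12, 9.25 and 8.95 against 8.24, 8.67, 8.77 and 8.40 (0.58, adjusted p = 0.539). The groups were apart on every array for these 3. Vegfa, the growth factor that drives capillary growth, overlapped, at 10.44, 9.86, 10.51 and 10.28 against 10.27, 10.06, 10.44 and 10.22 (0.03, -0.26 to 0.32), and Kdr, its main receptor, gave 0.11 (-0.23 to 0.44).

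Among 8 measured markers that define endothelial cells, 8 were higher with a median of 0.23, and 3 had an unadjusted p under 0.05, Pecam1 (0.34) and Tek (0.27) among them. Some of these genes are also in the vessel list. In whole muscle more cells of a type and more RNA per cell cannot be told apart. Markers of smooth muscle and pericytes, which wrap the vessels, were 12 of 17 higher with a median of 0.11, and 0.03 without HCR sedentary 2. Blood cell markers were 5 of 9 higher with a median of 0.01. Of the 9, 2 were higher and 1 lower at an unadjusted p under 0.05 (22.2% and 11.1%, against 4.28% and 5.66% of all genes). Hbb, a beta globin, read 12.01, 11.40, 12.14 and 11.55 against 10.84, 10.55, 11.01 and 11.35, with no overlap (0.84, limma adjusted p = 0.395). Alas2, the haem synthesis enzyme of red cells, gave 0.49, while Slc4a1, another of these markers, gave -0.18 (8 arrays alone -0.34 to -0.01). The part of blood left in the tissue was not tested. Oxygen sensing and haem genes were split at 9 of 18, with a median of 0.01. Egln3, an oxygen-sensing hydroxylase, gave 0.42 (adjusted p = 0.403). Mb, myoglobin, gave 0.13 (95% interval -0.02 to 0.28), with all LCR trained arrays (14.18 to 14.26) above all HCR sedentary ones (13.93 to 14.17).

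**Figure D5:**
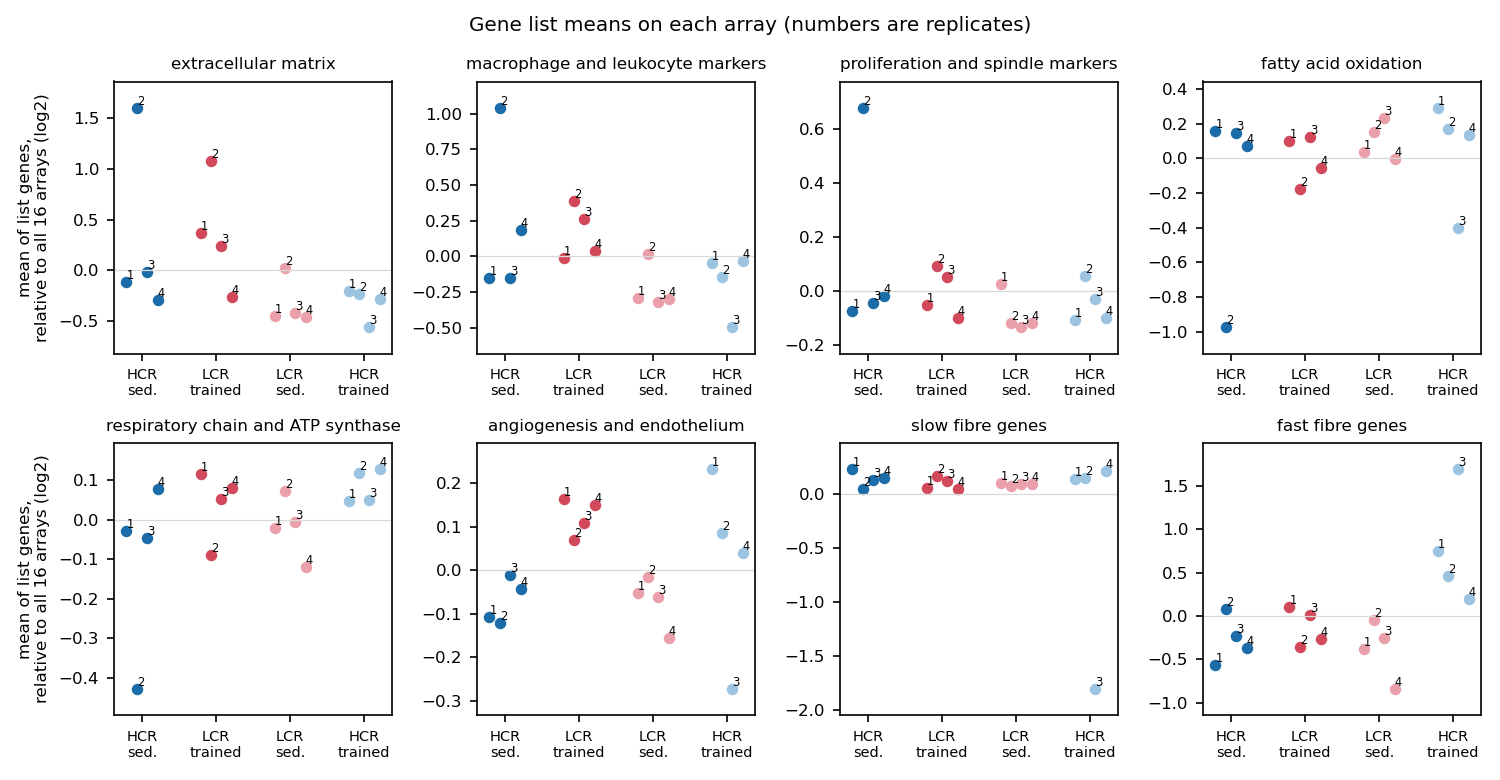
Mean of 8 gene lists on each array, relative to the average over the 16 arrays (log2, vertical axes), for HCR sedentary, LCR trained, LCR sedentary and HCR trained soleus, with replicate numbers beside the points. HCR sedentary 2 lies apart for matrix, leukocyte, proliferation and fatty acid oxidation genes, HCR trained 3 for fibre genes, and the angiogenesis means of LCR trained and HCR sedentary arrays do not overlap.

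Extracellular matrix genes were set by single arrays. With all arrays 26 of 40 were higher with a median of 0.05. Without HCR sedentary 2, 40 of 40 were higher with a median of 0.45, 10 of them with an unadjusted p under 0.05. Without LCR trained 2, 6 of 40 were higher with a median of -0.18. The list's means were 0.37, 1.08, 0.24 and -0.26 on the LCR trained arrays and -0.12, 1.60, -0.02 and -0.30 on the HCR sedentary arrays, so the groups overlapped in either case. Against the sedentary LCR rats both groups had a median above 0, LCR trained by 0.68 (0.44 without LCR trained 2) and HCR sedentary by 0.64 (0.22 without HCR sedentary 2). Lox, which cross-links collagen, read 10.70 on HCR sedentary 2, 9.39 on LCR trained 2 and 5.58 to 7.52 on the 6 other arrays.

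Dcn, decorin, a small proteoglycan that binds collagen, was also highest on those arrays within each group, but the groups stayed apart. It read 12.60, 12.72, 12.35 and 12.49 in LCR trained and 11.98, 12.29, 11.99 and 11.92 in HCR sedentary rats, with no overlap. The difference was 0.50 (95% interval 0.23 to 0.76, limma adjusted p = 0.304), and LCR trained minus LCR sedentary was 0.63. Fmod, fibromodulin, gave 0.55 (adjusted p = 0.594). Fibroblast and tendon markers were 9 of 12 higher with a median of 0.24, 0.37 without HCR sedentary 2 and 0.12 without LCR trained 2. One of them, Thy1, read 9.14 on HCR sedentary 2 and 5.80 to 6.64 elsewhere in the 2 groups.

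Other lists were read on the same terms. Macrophage and leukocyte markers had 12 of 27 higher and a median of -0.02, which became 19 of 27 and 0.29 without HCR sedentary 2, whose mean was 1.04. Cd74, the class II invariant chain, read 12.47 on that array. Leaving out LCR trained 2 gave 4 of 27 and -0.10. Proliferation and spindle genes had 1 of 19 higher and a median of -0.14. These became 12 of 19 and 0.05 without HCR sedentary 2, whose mean was 0.68. Histocompatibility and interferon genes had 12 of 30 higher and a median of -0.07, which became 16 of 30 and 0.01 without HCR sedentary 2. RT1-Db1 (-0.80) and RT1-S3 (0.73) lay on opposite sides. Satellite cell and myogenesis genes had 11 of 19 higher and a median of 0.01, which became 0.11 without HCR sedentary 2, where Mymk, the fusion protein myomaker, read 7.89 against 5.14 to 5.68 elsewhere in the 2 groups.

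Cytosolic ribosomal proteins lay lower with all arrays, with 4 of 41 higher and a median of -0.12. At an unadjusted p under 0.05, 6 were lower (14.6%, against 5.66% of all genes). Without HCR sedentary 2, whose mean was the highest at 0.34, 11 of 41 were higher and the median was -0.03, as it was over all genes. Then 1 of 41 was lower at an unadjusted p under 0.05 (2.44%, against 5.69% of all genes). Leaving out LCR trained 2 gave 0 of 41, a median of -0.17 and 14 lower at an unadjusted p under 0.05. Rpl12 read 12.51, 12.81, 12.50 and 12.49 against 12.71, 13.18, 12.75 and 12.89 (-0.31, limma adjusted p = 0.403). Proteasome subunits had 9 of 37 higher and a median of -0.07, and 17 of 37 with -0.01 without HCR sedentary 2. Protein breakdown genes had 14 of 21 higher and a median of 0.04, and Ddit4, a stress-induced inhibitor of mTOR, read 7.47, 7.25, 6.88 and 7.18 against 6.64, 6.58, 6.49 and 6.16 (0.73, adjusted p = 0.385).

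Antioxidant genes had 18 of 29 higher, with a median of 0.04. Both secreted enzymes among the widest had groups that did not overlap. Gpx3, the extracellular glutathione peroxidase, read 11.39, 11.35, 11.71 and 11.51 in LCR trained and 10.68, 10.85, 10.99 and 10.97 in HCR sedentary rats (0.62, 95% interval 0.30 to 0.94, limma adjusted p = 0.272). LCR trained minus LCR sedentary was 0.60 and HCR sedentary minus LCR sedentary -0.02. Sod3, the extracellular superoxide dismutase, gave 0.56 (adjusted p = 0.414), with -0.38 for HCR sedentary minus LCR sedentary. Nqo1, a target of the NRF2 stress factor encoded by Nfe2l2, gave -0.40 with overlap.

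Heat shock genes were split, with 13 of 25 higher and a median of 0.01. Hspa2, a member of the HSP70 family, was the widest at 0.69 (limma adjusted p = 0.426), with HCR sedentary minus LCR sedentary at -0.68. Immediate early genes, which exercise switches on within hours, had 7 of 27 higher and a median of -0.08 (-0.17 without LCR trained 2), and Nr4a2 and Nr4a1 gave -0.50 and -0.43 with overlap. Circadian genes had 9 of 20 higher and a median of -0.05. Their widest members were Rora (0.78), Bmal1 (0.55) and Dbp (-0.50), and the medians ran from -0.11 without HCR sedentary 2 to 0.04 without HCR sedentary 1. Cholesterol synthesis had 9 of 19 higher with a median of -0.01, and myokines and growth factors 14 of 28 with 0.01.

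Adipocyte markers had 5 of 15 higher and a median of -0.13. Adipoq, adiponectin, read 6.88, 7.02, 6.90 and 7.84 in LCR trained and 8.10, 6.59, 7.56 and 8.26 in HCR sedentary rats (-0.47, 95% interval -1.91 to 0.97). Schwann cell markers had 2 of 13 higher and a median of -0.13. Cnp, an enzyme of myelin, read 8.78, 8.95, 8.48 and 8.40 against 9.12, 9.72, 9.14 and 9.38, with no overlap (-0.69, limma adjusted p = 0.465). Across these lists the marker means of the groups overlapped except for the endothelial one, which ran from 0.14 to 0.20 in LCR trained and from -0.17 to -0.03 in HCR sedentary rats. The part of cell content in the differences between the groups was not tested.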

How the data were processed

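RNA of whole soleus was measured on 1 array per rat, in 16 rats of 4 groups of 4. The authors deposited log2 expression values for each probe set, and per the submitters' processing notes RMA and limma were used; the sources used here give no version of either. RMA sets background, quantile normalization and summary across all arrays at once, so values of 1 array depend on the others, and small differences between bright probe sets can be compressed. The scanner files were not used here. The deposited log2 values entered the tests as they stand: 57 control probe sets were left out and 31042 were tested. Array medians were 5.90 to 5.98. Precision is limited by having 4 arrays a group.

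Group means of the 16 arrays were fitted with limma 3.58.1 in R 4.3.3 (12 residual degrees of freedom, moderated test, two-sided, Benjamini-Hochberg adjustment over all probe sets, threshold 0.05). The fit was tested on simulated data with independent noise and no array that stands apart. That test therefore does not show how the fit behaves with such arrays. The labels give 1 rat per sample, so the spread is that between rats, with technical error included. Symbols came from the platform annotation: 20826 probe sets had 1 symbol, 436 several and 9780 none, and 20758 were matched by gene identifier to RefSeq GRCr8. Genes of several probe sets are given by the brightest in lists and by that of smallest p among the genes of smallest p.

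Named were the genes that passed, those of smallest p up to 10 in each direction among probe sets at or above the 40th percentile of level (5.61), the widest members of each list, a set of key genes, and genes whose call or values turned with 1 array. The members and lists were chosen with earlier results of these data known. Alternatives were quantile normalization, median centring, no dim probe sets, the 8 arrays alone, trend and robust moderation, array weights, the replicate block, control indices as covariates, a test against a 1.5-fold change, the mean over a gene's probe sets and the leaving out of arrays. Leaving out the other arrays of HCR trained and LCR sedentary rats was chosen after seeing the data.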

Additional observations from a re-analysis of the deposited data

Results flagged for a closer look

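In 314 groups of 4 arrays, the farthest array was set against the nearest of the others, and 23 (7.32%) had 1 array standing apart by Dixon's 95% criterion, where chance gives about 1 in 20. Of these, 15 were on HCR sedentary 2 and 5 on LCR trained 2. The genes share these arrays, so the 23 are not separate observations. The groups are those of the named genes and probe sets. Some were named for wide differences or for a call that turned with 1 array, so 1 in 20 is no strict reference.

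On HCR sedentary 2, metabolic genes stood low: Cs read 11.67, Cpt1b 11.42, Ldhb 12.55, Acaa2 9.88 and Atp5mf 12.38. The cell cycle genes Prc1 (7.63) and Ccnb2 (7.30), the fibroblast marker Thy1 (9.14), the fusion gene Mymk (7.89) and the fast myosin Myh4 (8.03) stood high on it. The same array stood apart for Cd9 (9.81), Spry2 (6.77), Pecam1 (8.37), Psmd13 (9.68) and probe set 1389369_at (7.23), the only one of the 9 that passed. On LCR trained 2 these were Ppargc1a (7.97), Rpl12 (12.81), Neb (12.92), Cyp4b1 (8.75) and Ube2b (11.93). The other arrays that stood apart were LCR trained 4 for Adipoq (7.84), LCR trained 1 for Dbt (9.35) and HCR sedentary 4 for Prkaa2 (9.42).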

How the results depend on the processing

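The count of 9 probe sets was also 9 with quantile normalization, median centring, no dim probe sets, trend and robust moderation or the GAPDH index, and 6 with the 8 arrays alone. It was 484 with array weights, 15 with the beta-actin index, 0 tested against a 1.5-fold change, 43 without HCR trained 3 and HCR sedentary 2 together, and 4 to 23 with 1 array left out. List genes past the threshold numbered 1, and 2 with the 8 arrays alone or the beta-actin index, 19 with array weights, 0 against a 1.5-fold change, 4 without both arrays and 0 to 4 with 1 array left out. The cause of these changes was not tested. With the replicate block 5 probe sets and 0 list genes passed, and Cox7a1 differed by 1.60 with a limma adjusted p of 0.0770. With each group's mean taken from every probe set, same-numbered HCR sedentary and LCR trained arrays correlated at 0.23, 0.57, 0.04 and 0.37. HCR sedentary 1, 2 and 4 correlated best with the LCR trained array of their own number, and HCR sedentary 3 with LCR trained 4. This is a hint from the data that numbers share something. Since the labels name no shared litter or day and 1 correlation was near 0, the numbers were not taken to pair the rats. Cox7a1 was 1.60 with an adjusted p of 1 against a 1.5-fold change, and 1.50 to 1.70 with 1 array left out.

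Of 4206 values for 156 named genes and probe sets, 4045 kept direction and side of the threshold, 40 lost the threshold, 69 passed it and 52 changed sign, in 21 genes. The cause was not tested. For those that changed sign, the differences with array weights were -0.12 for Ldhb, -0.0037 for Myh7, 0.11 for Myh4, -0.038 for Tnnt1, -0.041 for Atp2a2, 0.027 for Ccnb2, 0.029 for Cdk1 and -0.13 for Myocd. With the beta-actin index they were 0.029 for Ppargc1b, -0.036 for Ldhb and -0.0072 for Myh7. Without HCR trained 3 and HCR sedentary 2 together they were -0.010 for Cs, -0.072 for Lpl, -0.20 for Ldhb, -0.034 for Vegfa, 0.38 for Myh4, -0.0026 for Tnnt1, -0.045 for Atp2a2, -0.079 for Acaa2, 0.11 for Thy1, 0.087 for Prc1, 0.23 for Ccnb2 and 0.11 for Cdk1. With 1 array left out at a time they ranged over -0.29 to 0.12 for Ppargc1b, -0.010 to 0.19 for Cs, -0.32 to 0.00039 for Cpt1b, -0.072 to 0.26 for Lpl, -0.46 to 0.22 for Pdk4, -0.39 to 0.062 for Ucp3, -0.076 to 0.23 for Ldha, -0.20 to 0.13 for Ldhb, -0.051 to 0.17 for Vegfa and -0.0072 to 0.039 for Myh7. The others ranged over -0.71 to 0.38 for Myh4, -0.022 to 0.11 for Tnnt1, -0.021 to 0.33 for Tnnt3, -0.045 to 0.12 for Atp2a2, -0.23 to 1.47 for Lox, -0.079 to 0.54 for Acaa2, -0.95 to 0.11 for Thy1, -0.59 to 0.087 for Prc1, -0.57 to 0.23 for Ccnb2 and -0.42 to 0.11 for Cdk1.

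List medians that shifted beyond the spread of their arrays were -0.02 for antioxidant and -0.11 for clock genes without HCR sedentary 2 (with or without HCR trained 3), 0.04 for clock genes without HCR sedentary 1, and 0.12 for blood cell and 0.01 for smooth muscle markers without LCR trained 1. Protein breakdown gave 0.10 without HCR sedentary 3, 0.09 without LCR trained 2 and 0.10 by the mean over probe sets, which gave 0.0056 for insulin and AMPK signalling, and endothelial markers gave 0.18 with quantile normalization. Medians near 0 changed sign with quantile normalization for fatty acid uptake, oxygen handling, heat shock and skeletal muscle markers, and with median centring for slow fibre, calcium handling and cholesterol genes.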
